A study of Mus musculus with 2 samples.

Results

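The serum amyloid genes Saa1, Saa2, Saa3 and Saa4 and the acute-phase genes Hp, Orm1, Orm2 and Ptx3 were compared between a library of mouse cavernous endothelial cells (MCECs) kept in high glucose with vehicle and a library of the same kind of cells given pericyte-derived nanovesicles. These 8 genes are 8 of the 23183 gene symbols in the files, and all 8 were found, each as 1 row per library. They were chosen by symbol with the measured ratio of these same libraries already known, so their ratios are given as a description and no test was made of them. Of the 8, 6 reached at least 1 FPKM (fragments per kilobase of transcript, scaled to library size) in at least one library, 5 of those only in the nanovesicle library. Orm1 and Orm2 stayed under 1 FPKM in both.

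The study asked how PC-NVs, vesicle-like particles made by pressing cultured mouse cavernous pericytes through membranes, act on MCECs under diabetic conditions. The group HG+HBS received high glucose and HEPES-buffered saline (HBS), and the group HG+PC-NVs received high glucose and PC-NVs in the same buffer, so the controls carry the glucose treatment too. Each group is 1 library of primary cells that sprouted from penis tissue of adult male C57BL/6J mice and were subcultured in medium with 20% fetal bovine serum. The labels give 5 days of glucose, whereas the methods give a shorter exposure with PC-NVs present for the last day. No normal-glucose library was analysed here. With 1 library per condition, no difference below could be set against the spread between cultures, and no p-value is given.

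The acute-phase response is the change in plasma proteins that follows infection or injury. Interleukin-1, tumour necrosis factor and interleukin-6 act through the transcription factors NF-kB, C/EBP and STAT3, mainly in the liver, and raise serum amyloid A, haptoglobin and orosomucoid. Saa1 and Saa2 encode the serum amyloid A proteins carried on high-density lipoprotein, Saa3 is the form made largely outside the liver in the mouse, for example by macrophages and adipocytes, and Saa4 is regarded as the constitutive form. Hp encodes haptoglobin, which binds free haemoglobin, and Orm1 and Orm2 encode orosomucoid, or alpha-1-acid glycoprotein. Ptx3 encodes pentraxin 3, a long pentraxin of innate immunity that is produced locally by endothelial cells, fibroblasts and myeloid cells.

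The promoters of the 4 Saa genes are shown because these genes lie side by side on chromosome 7 and all differed by over 4-fold in the same direction. RefSeq sequences of GRCm38.p6, from 250 bases before to 50 bases after the annotated start, were available for 6 of the 8 genes. Capitals mark matches to TTNNGNAA, a loose core of C/EBP binding sequences, searched on both strands. Saa1 lies on the reverse strand (chr7:46742931-46743230), Saa2 on the forward strand (chr7:46751583-46751882), Saa3 on the reverse strand (chr7:46715627-46715926) and Saa4 on the reverse strand (chr7:46732554-46732853).
Saa1: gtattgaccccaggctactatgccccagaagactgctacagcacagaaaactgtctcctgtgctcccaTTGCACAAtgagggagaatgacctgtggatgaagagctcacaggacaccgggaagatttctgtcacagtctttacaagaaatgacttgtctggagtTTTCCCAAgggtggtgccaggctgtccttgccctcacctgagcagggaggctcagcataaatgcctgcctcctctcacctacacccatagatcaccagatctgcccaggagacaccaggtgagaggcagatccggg
Saa2: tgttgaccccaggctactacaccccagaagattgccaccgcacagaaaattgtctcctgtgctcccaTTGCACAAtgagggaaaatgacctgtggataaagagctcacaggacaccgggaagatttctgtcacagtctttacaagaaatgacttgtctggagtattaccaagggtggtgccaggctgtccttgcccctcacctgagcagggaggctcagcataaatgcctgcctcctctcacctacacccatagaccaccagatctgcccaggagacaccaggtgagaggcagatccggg
Saa3: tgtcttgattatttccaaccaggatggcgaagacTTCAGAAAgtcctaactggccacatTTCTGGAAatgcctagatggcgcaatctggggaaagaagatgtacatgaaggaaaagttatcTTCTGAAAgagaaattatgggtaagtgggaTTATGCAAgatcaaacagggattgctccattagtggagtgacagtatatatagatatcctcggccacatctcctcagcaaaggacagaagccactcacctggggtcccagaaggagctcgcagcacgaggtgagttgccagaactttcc
Saa4: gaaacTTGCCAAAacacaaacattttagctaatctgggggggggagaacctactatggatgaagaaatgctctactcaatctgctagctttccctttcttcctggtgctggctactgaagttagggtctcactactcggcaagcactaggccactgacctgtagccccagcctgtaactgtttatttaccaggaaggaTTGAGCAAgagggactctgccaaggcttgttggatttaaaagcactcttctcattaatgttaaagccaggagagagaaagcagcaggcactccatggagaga

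The Saa1 and Saa2 promoters shared 287 of 299 aligned bases, or 96.0%, with 2 gap bases. Both hold TTGCACAA, at bases 182 to 175 before the start of Saa1 and 183 to 176 before that of Saa2. The Saa1 promoter has another match, TTTCCCAA, at 86 to 79 before the start. The Saa3 promoter holds 4 matches, the one nearest to the start being TTATGCAA at 99 to 92 before it. The Saa4 promoter holds 2. In Ptx3 there is 1, and Orm2 has 2. This core is frequent, with at least 1 match in 40.7% of all 32851 promoters of the same length. The longer kB consensus, the binding sequence of NF-kB dimers, had 0 matches in the 4 Saa windows and 2 overlapping matches at the start of Ptx3, against 8.46% of all promoters with at least 1. The STAT core TTCNNNGAA (8.3% of promoters) was in none of the 6 windows. The AP-1 core TGANTCA (7.81% of promoters) and the TATA box TATAAA (13.6%) each occurred once, both in Orm2. A match is a description of letters only, and a missing match says nothing of the factor.

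Values are the authors' normalized FPKM, recovered here from deposited log2(FPKM + 1) values, and fold changes are on the log2(FPKM + 1) scale unless a plain FPKM ratio is named. The number of sequenced fragments behind a value was estimated from the smallest steps of the data, which place HG+HBS at roughly 13300000 and HG+PC-NVs at roughly 11700000 fragments. The 95% intervals given are exact Clopper-Pearson intervals and leave out all error but that of counting, and the floor of detection was set at 3 fragments.

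Saa3 was listed at 67.8 FPKM with HBS and at 11018 FPKM with PC-NVs. That is a log2 ratio of 7.32, or 160.2-fold, and the plain FPKM ratio was 163 with a counting interval of 149 to 178. It rests on about 500 fragments with HBS and about 71500 with PC-NVs, so depth does not limit it. Among all 23183 symbols, Saa3 went from rank 1178 by FPKM in HG+HBS to rank 3 in HG+PC-NVs. The genes above it were Spp1, which encodes osteopontin, at 16778 FPKM, and the ribosomal RNA precursor Rn45s at 11145 FPKM. Its share of the summed FPKM was 0.0130% with HBS and 1.90% with PC-NVs.

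Saa1 and Saa2 were just under the floor of 3 fragments in HG+HBS and well above it with PC-NVs, so their ratios are known only within wide intervals. Saa1 was listed at 0.359 FPKM with HBS and 66.2 FPKM with PC-NVs, about 2.91 and 472 fragments. Its log2 ratio was 5.63, and its plain FPKM ratio was 184 with a wide counting interval of 61.7 to 928. Saa2 was listed at 0.356 FPKM and 66.7 FPKM, about 2.87 and 473 fragments. The log2 ratio of Saa2 was 5.64, and its plain ratio was 187 (62.3 to 958). The Saa1 and Saa2 levels thus could not be told apart in either library, with a Saa1 to Saa2 ratio of 1.01 with HBS and 0.993 with PC-NVs.

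Saa4 was listed at 0.269 FPKM with HBS and 14.7 FPKM with PC-NVs, about 7.49 and 361 fragments for its annotated transcript of 2094 bases. The log2 ratio was 3.63, or 12.4-fold, and the plain FPKM ratio was 54.8 (26.9 to 132). Saa4 was thus the lowest of the 4 Saa genes in HG+PC-NVs and had the smallest log2 ratio of them. Its interval lies below that of Saa3 as far as counting error goes, whereas the intervals of Saa1 and Saa2 contain the ratio of Saa3. The Saa4 interval also rests on the annotated length of 2094 bases, and a shorter transcript would mean fewer fragments and a wider interval.

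**Figure D1:**
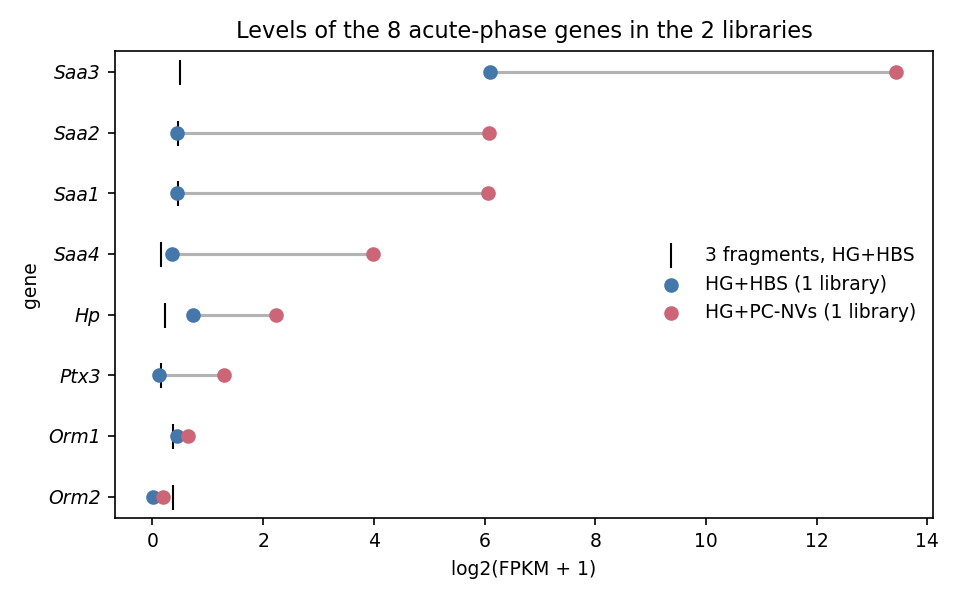
Level of each of the 8 genes as log2(FPKM + 1) on the x axis, with HG+HBS in blue and HG+PC-NVs in red, 1 library each, and a black tick at the level that 3 fragments give in HG+HBS. Saa3 starts at 6.10 and reaches 13.43, Saa1 and Saa2 leave the floor for 6.07 and 6.08, and the Orm genes stay beside it.

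Haptoglobin and pentraxin 3 were also listed higher in HG+PC-NVs, at low levels. Hp was 0.656 FPKM with HBS and 3.69 FPKM with PC-NVs, about 11.7 and 58.1 fragments, a log2 ratio of 1.50. Its plain FPKM ratio was 5.63 with a counting interval of 2.97 to 11.6. Ptx3 was 0.0805 FPKM and 1.43 FPKM, about 2.03 and 31.8 fragments, a log2 ratio of 1.17 and a plain ratio of 17.8 (4.58 to 150.2). Its level with HBS was under the floor of 3 fragments, so the ratio is known only within that interval. Neither gene passed 4-fold on the log2(FPKM + 1) scale, since the added 1 FPKM outweighs their HG+HBS level. Both passed it with 0.1 FPKM added, where Hp differed 5.02-fold and Ptx3 8.50-fold. Ptx3 (chromosome 3, 66219910 to 66225805, forward strand) lies within Veph1, which is on the reverse strand and was listed at 0.0110 and 0.0508 FPKM.

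The orosomucoid genes were at the detection limit. Orm1 was 0.359 FPKM with HBS and 0.563 FPKM with PC-NVs, about 3.69 and 5.10 fragments, and its plain ratio of 1.57 had a counting interval of 0.333 to 8.36. No difference in Orm1 was detectable at this depth. Orm2 was listed at 0.000201 FPKM and 0.139 FPKM, below 3 fragments in each library, so no fold is given. The neighbouring Orm3, listed at 0.000109 and 0.139 FPKM, was in the same state.

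Of the 6 genes with at least 1 FPKM in a library, the 4 Saa genes passed a 4-fold difference, all higher in HG+PC-NVs, beside 0.619% of the 12109 genes with that level. The members were selected on this contrast, so nothing is read from the count. Saa4, at a log2 ratio of 3.63, was the member just inside the threshold of 2, and Hp, at 1.50, the one just outside it. With the study's further requirement of a log2 value above 6 applied in both libraries, only Saa3 was left of the 8 genes and it passed, beside 0.588% of 1191 genes. The median log2 ratio of all 8 genes, Orm1 and Orm2 included, was 2.57. Over the 6 with at least 1 FPKM it was 4.63, though 5 of these reached that level only in HG+PC-NVs. That of the 12109 genes with this level was -0.01.

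**Figure D2:**
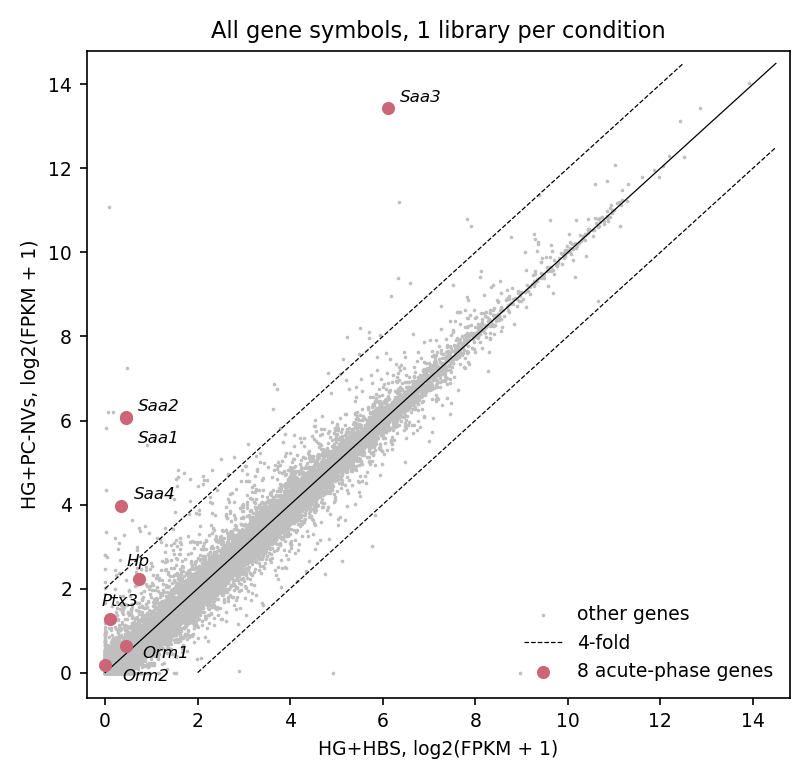
Each point is a gene symbol, with its log2(FPKM + 1) in HG+HBS on the x axis and in HG+PC-NVs on the y axis, 1 library each. The solid line marks equal values and the dashed lines a 4-fold difference. The 4 Saa genes lie above the upper dashed line, Saa3 at 6.10 and 13.43, while Hp, Ptx3, Orm1 and Orm2 lie between the lines near the origin.

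By log2 ratio, Saa3 ranked 2 among the 12109 genes, Saa2 ranked 7, Saa1 ranked 8 and Saa4 ranked 13, with Hp at 130 and Ptx3 at 221. The small nucleolar RNA Snord83b ranked 1, listed at 0.0635 and 2166 FPKM. Between Saa3 and Saa2 came Csf3, which encodes granulocyte colony-stimulating factor, at 6.77, Snora65 at 6.14, the neutrophil chemokine gene Cxcl1 at 6.05 and Snora7a at 5.79. Directly after Saa1 came Lcn2, which encodes the iron-siderophore binding protein lipocalin 2, at 4.84, the antimicrobial peptide gene Camp at 4.50 and Il6 at 4.46. The order rests on 1 ratio of 2 libraries, so neighbours in it are not shown to differ.

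The 8 genes together summed to 69.9 FPKM with HBS and 11171 FPKM with PC-NVs, and the proportions between them were compared within each library. Saa3 made up 97.0% of the summed FPKM of the 8 genes with HBS and 98.6% with PC-NVs. Relative to Saa1, Saa3 was 189-fold higher with HBS and 166-fold higher with PC-NVs, and relative to Saa2 190.2-fold and 165-fold. Given about 3 fragments of Saa1 and of Saa2 in HG+HBS, these proportions could not be told apart. Relative to Saa4, Saa3 was 252-fold higher with HBS and 747-fold higher with PC-NVs. Saa1 to Saa3 lengths differ little, with main transcripts of 609, 606 and 555 bases.

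Since near-identical paralogs can share reads, the transcripts were compared in windows of 100 bases, allowing 2 mismatches. Of the 510 windows of the main Saa1 transcript, 24 (4.71%) matched Saa2, and the aligned bases of both transcripts were 94.4% identical, so part of the reads cannot be assigned to Saa1 or Saa2 with certainty. None of the windows of Saa1 or Saa2 matched Saa3, with at least 5 mismatches per window for Saa1 and 10 for Saa2. The longest stretch shared with Saa3 was 58 bases for Saa1 and 41 bases for Saa2. Saa4 windows differed from each of the other 3 genes by at least 24 bases. Orm1 and Orm2 shared 133 of 676 windows (19.7%), so their low values are uncertain between them. The mismatch setting of the authors' alignment is not given in the sources used here, so the share of reads that crossed between genes was not tested.

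The 4 Saa genes lie within about 36.1 kb between the starts of Saa3 and Saa2, Saa3 from 46711998 to 46715700, Saa4 from 46727998 to 46732603, Saa1 from 46740497 to 46742980 and Saa2 from 46751790 to 46754313 (GRCm38, GENCODE M21). Of the 6 neighbours, 3 on each side, none passed 4-fold, beside 0.619% of all 12109 genes higher and 0.0578% lower. At such small shares, nothing is read from that count. Ldha differed most of the neighbours. Saal1, whose start is 5.02 kb from that of Saa3, was 3.34 FPKM with HBS and 2.98 FPKM with PC-NVs, and Sergef, a further gene on that side, was 6.31 and 5.87 FPKM. Hps5, a subunit gene of a lysosome biogenesis complex, was 5.74 and 5.84 FPKM, and Gtf2h1, a subunit gene of the transcription factor TFIIH, 17.5 and 17.4 FPKM. Tph1 was under 1 FPKM in both. Ldha, which encodes the glycolytic enzyme lactate dehydrogenase A and starts 125.8 kb from Saa3, was 439 FPKM with HBS and 1330 FPKM with PC-NVs, a log2 ratio of 1.60. The over 4-fold differences of this stretch were those of the Saa genes, which were chosen with their ratios known.

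**Figure D3:**
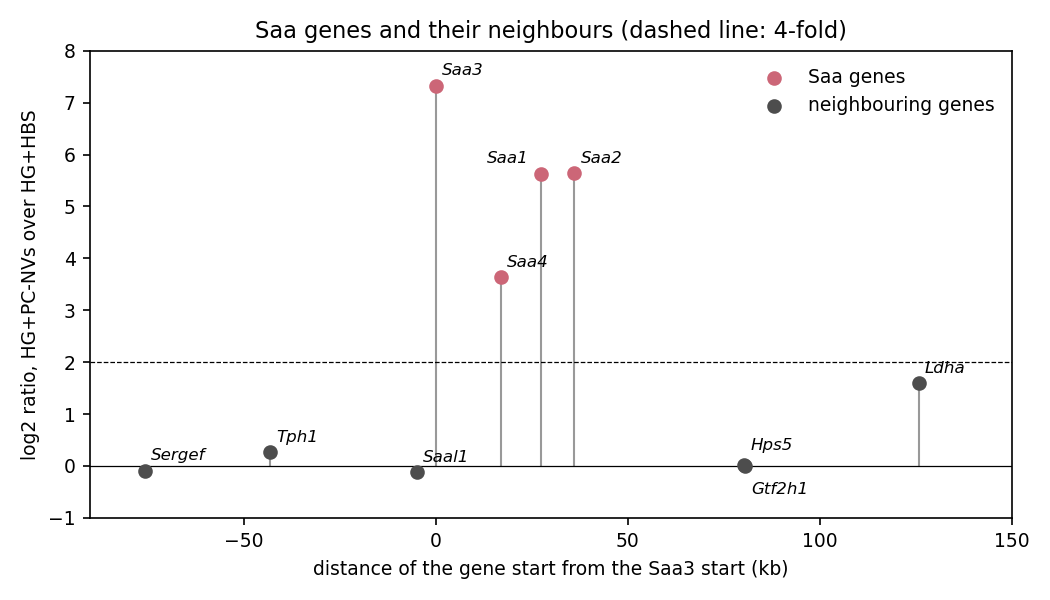
Log2 ratio of HG+PC-NVs over HG+HBS on the y axis against the distance of each gene's start from that of Saa3, in kb, for the 4 Saa genes (red) and the 3 neighbours on each side that are in the files (grey), 1 library per condition. Saa3 (7.32), Saa2 (5.64), Saa1 (5.63) and Saa4 (3.63) stand above the dashed 4-fold line, Ldha (1.60) is below it, and the other neighbours lie between -0.12 and 0.26.

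Neighbours of the other members were read in the same way. Next to Hp (chromosome 8, 109575128 to 109579172, reverse strand), Txnl4b was 2.98 and 2.19 FPKM, Dhx38 13.5 and 13.5 FPKM and Dhodh 4.56 and 4.58 FPKM. Around Orm1 (chromosome 4, 63344560 to 63348163) and Orm2 (63362449 to 63365878), both on the forward strand, Col27a1 was 1.78 and 1.24 FPKM, Akna 0.957 and 1.02 FPKM and Whrn 2.86 and 4.18 FPKM. Near Ptx3, Ccnl1 was 10.9 and 12.8 FPKM and Shox2 29.0 and 19.5 FPKM. None of the neighbours of Hp, Orm1, Orm2 or Ptx3 passed 4-fold, beside 0.619% of all 12109 genes higher and 0.0578% lower. Several of them, such as Ambp, Kif12 and Pmfbp1, were under 1 FPKM in both libraries and could not pass. Nothing is therefore read from that count.

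Other genes known to rise in the acute phase, most of them for plasma proteins, were taken from a list of 37 genes, 20 of which reached 1 FPKM in a library, 3 of them only in HG+PC-NVs. Of the 20, 7 were over 4-fold higher in HG+PC-NVs, beside 0.619% of all 12109 genes, and 0 were over 4-fold lower, beside 0.0578%. The median log2 ratio of the 20 was 1.28 and that of all genes tested -0.01. This list and those below were drawn up with earlier results of these data known, so their counts are descriptions. Lcn2 rose from 80.4 to 2334 FPKM. The complement genes C3 and Cfb, the central component and a protease of the alternative pathway, rose from 72.0 to 499 FPKM and from 1.97 to 27.3 FPKM. Cp, which encodes the copper-binding ferroxidase ceruloplasmin, rose from 43.8 to 191 FPKM. Steap4, a metalloreductase gene, rose from 12.2 to 106 FPKM, Cd14, the lipopolysaccharide co-receptor gene, from 36.6 to 252 FPKM, and the serpin gene Serpina3g from 1.17 to 8.23 FPKM.

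Other members of the list differed less or were lower. Fgl1, which encodes a fibrinogen-like liver protein, was 10.2 and 6.49 FPKM, and Agt, the angiotensinogen gene, 2.03 and 1.26 FPKM. The metallothionein gene Mt2 was just short of the limit at 3.97-fold, with 661 and 2631 FPKM, and Mt1 was 784 and 1737 FPKM. Serpina3n, a serpin of the same family as Serpina3g, was 61.2 and 78.3 FPKM, and Lbp, which encodes lipopolysaccharide-binding protein, was 50.9 and 52.8 FPKM. Hpx, which encodes the haem-binding protein haemopexin, was 0.532 and 1.31 FPKM. Of the list, 11 genes were under 0.1 FPKM in both libraries, among them the liver genes Hamp, Itih3, Itih4 and Apcs.

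Of 12 genes of plasma proteins known to fall in the acute phase, 4 reached 1 FPKM and none passed 4-fold lower, beside 0.0578% of all 12109 genes. Trf, which encodes transferrin, was 37.9 FPKM with HBS and 106 FPKM with PC-NVs, and Rbp4, which encodes retinol-binding protein, 3.17 and 10.3 FPKM. Apoa2 was 1.78 and 3.94 FPKM, and the growth factor gene Igf1 4.32 and 1.84 FPKM. The 4 genes therefore went both ways, with log2 ratios from -0.90 to 1.46.

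Of 13 cytokine genes known to induce acute-phase genes, 9 reached 1 FPKM, and 4 of these (Csf3, Il1a, Il1b and Tnf) did so only in HG+PC-NVs. Of the 9, 4 were over 4-fold higher, beside 0.619% of all 12109 genes. Il6 rose from 1.09 to 45.1 FPKM, Lif from 11.5 to 115 FPKM, Il11 from 3.33 to 21.4 FPKM and Csf3 from 0.390 to 151 FPKM. The first 3 of these encode cytokines that signal through gp130. Il1b, at 0.0615 and 1.35 FPKM, Il1a, at 0.193 and 1.89 FPKM, and Tnf, at 0.245 and 2.52 FPKM, were low in both libraries. They did not pass on the log2(FPKM + 1) scale, where the added 1 FPKM outweighs their HG+HBS level. Their plain FPKM ratios were 21.9 (3.77 to 666), 9.76 (3.90 to 31.2) and 10.3 (4.23 to 31.8). These rest on about 1.11, 5.07 and 5.33 fragments with HBS. Of 31 genes for their receptors and signal transducers, 28 reached 1 FPKM in HG+HBS, and their median log2 ratio was 0.07. None of the 28 passed 4-fold, beside 0.619% of all 12109 genes higher and 0.0578% lower. With shares this small, nothing is read from that count. Il6st, the gp130 gene, was 51.6 and 66.8 FPKM, Stat3 69.8 and 75.2 FPKM, Tnfrsf1a 149 and 135 FPKM, and Jak1 86.1 and 75.6 FPKM. The highest ratio in that list was 1.79 for Irak3, which encodes an inhibitory kinase of the interleukin-1 receptor pathway, at 3.79 and 15.6 FPKM. Socs3, a feedback inhibitor of gp130 signalling, was 41.1 and 70.9 FPKM.

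Of 31 transcription factor and inhibitor genes of acute-phase promoters found in the files, 23 reached 1 FPKM and 1 was over 4-fold higher, beside 0.619% of all 12109 genes. This was Nfkbiz, which encodes the nuclear NF-kB cofactor IkB-zeta and rose from 4.69 to 33.0 FPKM. The C/EBP genes Cebpd, at 129 and 239 FPKM, and Cebpb, at 88.8 and 182 FPKM, had the highest levels of the list, whereas Cebpa was 11.9 and 8.42 FPKM and Cebpg 8.08 and 10.9 FPKM. Nfkbia, the gene of the NF-kB inhibitor IkB-alpha, was 5.68 and 18.4 FPKM. The median log2 ratio was 0.53. The hepatocyte factors Hnf4a, Foxa1 and Foxa2 were under 0.1 FPKM in both libraries.

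**Figure D4:**
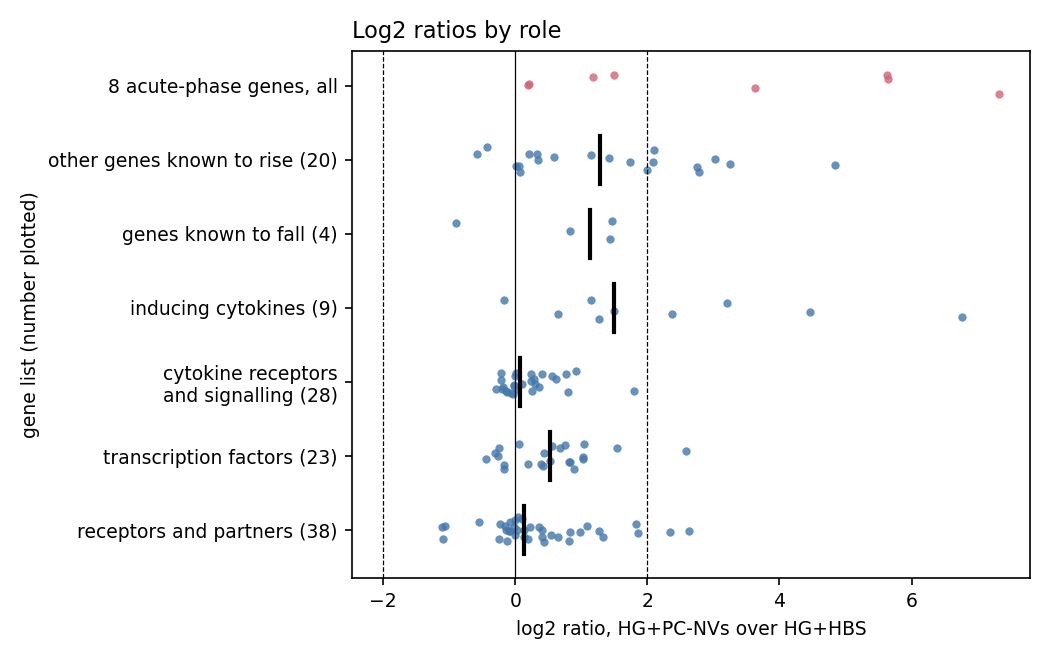
Log2 ratio of HG+PC-NVs over HG+HBS (x axis, 1 library per condition) for all 8 genes described here (red) and for the genes of each other list with at least 1 FPKM in a library (blue), the number in brackets. Black bars are list medians and dashed lines mark a 4-fold difference. Csf3 at 6.77 and Lcn2 at 4.84 are the highest points of the cytokines and of the other genes known to rise, 4 and 3 of which reached 1 FPKM only with PC-NVs, and the 28 receptors and signal transducers lie between the lines.

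Of 43 genes for receptors and binding partners of these proteins, 38 reached 1 FPKM, 2 were over 4-fold higher, beside 0.619% of all 12109 genes, 0 were over 4-fold lower, beside 0.0578%, and the median log2 ratio was 0.13. Both of the higher genes reached 1 FPKM only in HG+PC-NVs. The formyl peptide receptor gene Fpr1 rose from 0.674 to 9.38 FPKM, and Siglece, which encodes a sialic acid-binding receptor of myeloid cells, from 0.252 to 5.37 FPKM. Fpr2, the gene of a receptor described for serum amyloid A, was 0.0635 and 1.09 FPKM. Tlr2, another such receptor gene, was 6.80 and 27.2 FPKM, and the scavenger receptor gene Scarb1 was 13.8 and 12.9 FPKM. The haemoglobin-haptoglobin receptor gene Cd163 was under 0.1 FPKM in both. Tnfaip6, whose product binds pentraxin 3 in the hyaluronan matrix, was 5.88 and 15.6 FPKM, and the hyaluronan-binding proteoglycan gene Vcan 57.7 and 147 FPKM. The most abundant genes of this list in HG+HBS were the protease genes Ctsd, at 1495 and 1348 FPKM, and Ctsb, at 615 and 628 FPKM, and between them the protease inhibitor gene Cst3, at 874 and 818 FPKM.

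The labelled cell type was checked against markers. Of 14 endothelial markers, 6 reached 1 FPKM with HBS and 4 with PC-NVs, and their summed level was 65.7 and 50.9 FPKM. Pecam1 was 1.05 and 0.938 FPKM, Cdh5 5.05 and 5.73 FPKM, and Kdr 0.518 and 0.438 FPKM. The highest of the list were Eng, at 29.0 and 21.4 FPKM, Esam, at 17.4 and 11.7 FPKM, and Egfl7, at 9.48 and 8.57 FPKM. All 10 fibroblast markers reached 1 FPKM in both libraries, summing to 2304 and 2592 FPKM, with Dcn at 623 and 1283 FPKM and Thy1 at 549 and 412 FPKM. The median log2 ratio of the fibroblast markers was -0.26, and Dcn was the one marker with a large difference upward. Pecam1, Cdh5 and Kdr, defining endothelial genes, were thus low in libraries labelled as endothelial cells, and fibroblast markers were high, in both conditions. In such bulk samples, fewer cells of a type and less RNA per cell cannot be told apart.

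Markers of cell types that are known to make serum amyloid A were examined beside the Saa values. Of 15 hepatocyte markers, 1 reached 1 FPKM, Apoa2, and the list summed to 2.94 and 5.93 FPKM, with Alb at 0.148 and 0.561 FPKM. Of 10 adipocyte markers, Adipoq, Plin1, Cidec, Lep and Retn were under 0.1 FPKM in both libraries, and the list summed to 118 and 80.0 FPKM, mostly Fabp4. Of 14 macrophage and monocyte markers, 12 reached 1 FPKM in both libraries, and their summed level was 389.7 FPKM with HBS and 634 FPKM with PC-NVs. Of these 12, Cd14 and Adgre1 (7.44 and 42.5 FPKM) passed 4-fold higher, beside 0.619% of all 12109 genes, and Aif1 was 2.93 and 12.9 FPKM. Cd14, which is also in the list of genes known to rise, made up 36.6 and 252 FPKM of these sums. Lyz2 was 212 and 193 FPKM, Mrc1 3.76 and 1.27 FPKM, Csf1r 8.39 and 6.20 FPKM and Cd68 36.2 and 26.3 FPKM. Of 10 neutrophil markers in the files, 2 reached 1 FPKM, both only in HG+PC-NVs. These were Camp (0.871 and 41.4 FPKM) and S100a9 (0.00323 FPKM, under 3 fragments, and 5.96 FPKM). Both were past 4-fold, beside 0.619% of all 12109 genes, while Mpo, Elane, Ngp, Ltf and Retnlg were under 0.1 FPKM in both libraries. The part of myeloid cells in the Saa difference was not tested. Of 8 epithelial markers, 1 reached 1 FPKM, Krt18 at 9.61 and 2.05 FPKM. The 13 pericyte and smooth muscle markers summed to 148 and 109.7 FPKM. None passed 4-fold, beside 0.619% of all 12109 genes higher and 0.0578% lower. Members differed in both directions, with Acta2 at 27.6 and 8.02 FPKM and Tagln at 17.3 and 7.34 FPKM, but Kcnj8 at 7.98 and 20.4 FPKM and Rgs5 at 1.69 and 7.23 FPKM.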

How the data were processed

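RNA of 2 cultures was sequenced, 1 library per condition. The authors trimmed the reads, mapped them with TopHat, obtained FPKM with Cufflinks and normalized with edgeR in R, naming a quantile method. The submitters' processing notes name the build mm10, which is the same assembly as GRCm38, and versions are not given in the sources used here. The authors deposited log2(normalized FPKM + 1) for 33299 rows per library. The log2 scale was read from the values, which reach 13.99.

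Here 2^value - 1 was summed over the rows of each of 23183 symbols, and the log2 ratio of (FPKM + 1) was taken. The values were used as deposited, since the methods already name a normalization, and a further quantile step is an alternative. Calls needed over 4-fold and 1 FPKM in a library. The worth of 1 fragment was read from low FPKM times length over 2189 genes with a single transcript above 1500 bases, and fragments per gene used the length of the transcript that GENCODE M21 numbers first, or else the longest, so they are approximate. Calls were tested on simulated data with counting noise only and with large changes planted in genes well above 1 FPKM. That test does not cover changes in genes near the floor or the spread between cultures. Transcripts were aligned with Biopython. The tools were scipy 1.17.1, pandas 2.3.3 and numpy 2.4.6 under Python 3.11.15, with figures by matplotlib 3.10.9.

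The members and gene lists were chosen with earlier results of these data known. The rule for named genes took the members, the genes of each list past 4-fold, up to 4 others of each list with the highest FPKM, the 10 largest ratios and 10 highest levels, and 3 neighbours on each side of a locus. Other genes of the lists, such as Hpx, Il1b, Tnf, Irak3, Socs3, Nfkbia, Fpr2, Tlr2, Scarb1, Tnfaip6, Vcan, Serpina3n, Lbp, the Fc receptor genes and most markers named singly, fall outside it and were chosen after their values were seen. The values of 1 listed gene are not reported here. Symbols absent from the files were looked up among RefSeq synonyms.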

Additional observations from a re-analysis of the deposited data

How the results depend on the processing

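The 4 Saa genes were more than 4-fold higher after quantile normalization between the libraries, after median centring, with the highest row of each symbol and with no filter on low values. The last 2 settings could not change this, since each of these genes has 1 row and had already passed the filter. Median centring removed a median log2 ratio of only -0.008. With 0.1 FPKM added, or with a fold change above 2, Hp and Ptx3 passed as well. Where either library had to exceed a log2 value of 6, Saa4 dropped out, and where both had to, the count of these genes fell from 4 to 1, Saa3. The count over all genes was 75 and became 145 with 0.1 FPKM added, 7 where both libraries had to exceed 6, 25 where either had to, and 305 at a limit of 2-fold. Of the other genes known to rise, 7 became 2 where both libraries had to exceed 6 and 11 at a limit of 2-fold. The count of genes known to fall that were lower past the limit was 0 in each of these settings. Where both libraries had to exceed 6, however, 0 of those genes were left to count, so that result was fixed in advance. Where either had to, 1 was left. The higher and lower counts follow from what each threshold admits.

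Of 28 alternative log2 ratios of the 7 genes with more than 3 fragments in a library, 22 lay within the gene's counting interval and 6 outside it. All 28 were above 0, but the genes were chosen with their ratios known. These settings could hardly change a sign, so nothing is read from that count. Saa3 was 6.83 after quantile normalization, or 114-fold, and 0.1 FPKM added raised Saa1, Saa2, Saa4, Hp and Ptx3, to 7.17, 7.19, 5.33, 2.33 and 3.09. Depth limits the genes near 3 fragments in HG+HBS, namely Saa1, Saa2, Ptx3 and the Orm genes. No paired analysis was possible because each condition has 1 library, and no replicate could be left out.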

Other observations

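Of 9 other pentraxin genes, 3 reached 1 FPKM, and all 3 had log2 ratios below 0, beside 6263 of all 12109 genes. With so many genes below 0, nothing is read from the direction of these 3. Nptx1, which encodes a neuronal pentraxin, was 36.3 FPKM with HBS and 14.7 FPKM with PC-NVs, Svep1 was 2.15 and 0.535 FPKM, and Nptxr, the neuronal pentraxin receptor gene, was 8.50 and 7.45 FPKM. The short pentraxin genes Crp and Apcs, classical liver acute-phase genes, were under 0.1 FPKM in both libraries.

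The Fc receptor genes, whose products bind pentraxins as well as antibodies, were chosen for this paragraph after their values were seen. Fcgr1 was 1.25 and 1.06 FPKM, Fcgr2b 6.14 and 2.29 FPKM and Fcgr3 14.7 and 6.48 FPKM, while Fcer1g, the shared signalling chain, was 18.8 and 41.1 FPKM. Apoe, a lipoprotein gene, was 308 and 144 FPKM. None of these passed 4-fold, beside 0.619% of all 12109 genes higher and 0.0578% lower, so nothing is read from that count.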
